A study of Drosophila melanogaster with 2 samples.

Results

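The genes of the ecdysone receptor and of the early response to its hormone were read out in the RNA of Drosophila Kc167 cells. Members were 10 named genes of the 17807 in the deposited table: the receptor genes EcR and usp, the early genes Eip74EF, Eip75B and br, the nuclear receptor genes Eip78C, Hr3 and ftz-f1, the late factor gene Eip93F, and Eip71CD. Each was found by its FlyBase identifier, and Eip71CD stands in the annotation as MsrA. The series analysed here holds 2 poly(A)-enriched, strand-specific RNA-seq libraries, replicates 1 and 2 of a single group. Both came from Kc167 cells grown at 25 °C in a serum-free insect medium. The cells were exposed to 2% DMSO, a solvent, for 1 h at room temperature. No hormone was given, and cells with a hormone or without the solvent were not analysed here, so every value below is a resting level in solvent and no induction can be read from it. The labels number the libraries as replicates without saying whether they came from separate cultures, so each SD below is the spread between these libraries, which may be technical.

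Ecdysone is the steroid hormone that times moulting and metamorphosis in insects. Its active form, 20-hydroxyecdysone, binds a heterodimer of the nuclear receptors EcR and Usp, which sits on DNA with corepressors or coactivators. The bound receptor switches on a small set of early genes, most of which encode transcription factors, and these in turn act on the larger set of late genes. Kc167 is a cell line from Drosophila embryos, and Kc cells have long been used to study the response to this hormone.

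The count files held 42634176 read pairs for replicate 1 and 40173312 for replicate 2, of which 78.4% and 79.0% were placed on a gene. A gene was called detected at 10 counts or more in each library, a minimum that 8846 genes (49.7% of all genes) met. All 10 hemocyte markers looked up (srp, Hml, Pxn, Col4a1, vkg, NimC1, eater, Sr-CI, He and Ppn) were detected, with summed levels of 868 and 893 TPM. Most of this came from Col4a1 (263 TPM), He (218), vkg (192) and srp (116), while NimC1 (2.42), Sr-CI (2.89) and eater (3.45) were low. Of 5 neuron markers 4 were detected, at 7.41 and 7.45 TPM in sum, and Appl among them (5.46 TPM) lay above those 3 low hemocyte markers. Of 5 muscle markers 1 was detected (0.390 and 0.475 TPM), of 5 fat body markers 1 (0.328 and 0.472 TPM), and of 6 salivary gland markers none (0.195 and 0.183 TPM, at most 2 counts in a gene and library). These sums are on the exonic scale defined next. All the salivary gland markers, and the fat body markers Lsp2, Fbp1 and Fbp2, are also hormone targets listed further below. Without hormone, their low counts do not show which tissue the cells resemble.

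Most members are long genes with several transcripts, usp and Eip71CD being short ones, and this bears on their levels. Spans ran from 2.15 kb (Eip71CD) and 3.51 kb (usp) to 89.7 kb (br) and 113.7 kb (Eip75B), and each member had between 2 and 16 annotated transcripts. The starts of the Eip75B transcripts were spread over 102.9 kb, those of br over 47.6 kb and those of EcR over 37.2 kb. TPM is a count per base of gene length, rescaled so that every library has the same sum. The length in the deposited table equals the lengths of all transcripts of a gene added together for 9 of the 10 members, so a base in several transcripts was counted several times. For br the deposited 71361 bases were 9042 below the sum in the annotation used here. The deposited length exceeded the number of distinct exonic bases by 1.83-fold for usp and by 4.44-fold for Eip71CD, and for every member by more than the median detected gene (1.78-fold). Levels are therefore given as deposited and again over the distinct exonic bases, here called exonic TPM. A gene whose 2 lengths are equal moves by -0.65 on the log2 scale between these, and the median detected gene by 0.19.

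**Figure D1:**
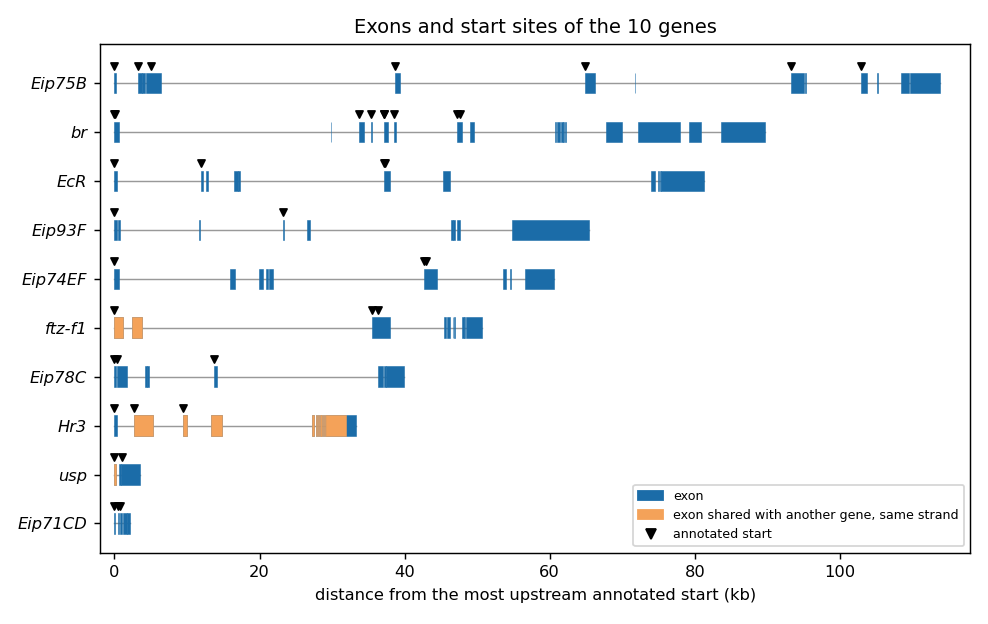
Gene models of the 10 members, drawn to the same scale in kb from the most upstream annotated start, with introns as lines, merged exons as boxes and annotated starts as arrowheads. Exonic bases shared with another gene on the same strand are drawn in their own colour. They fill most of Hr3, less of ftz-f1 and an end of usp, and none of the other 7 members.

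EcR encodes the hormone-binding subunit of the receptor. The gene (FBgn0000546) lies on the minus strand of chromosome 2R from 6087873 to 6169087 in the dm6 assembly, with 6 transcripts from 4 starts and 3 distinct coding regions of 669 to 878 amino acids. EcR received 1158 and 1101 counts in replicates 1 and 2. That was 3.31 and 3.36 deposited TPM (mean 3.34 ± 0.0330, SD, n = 2) or 6.74 and 6.79 exonic TPM (6.77 ± 0.0340). The level placed EcR above 17.1% of the detected genes on the deposited scale and above 22.8% on the exonic scale. Its introns hold 15 other annotated genes, 13 of them tRNA genes, and these had 10 and 9 counts in all.

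usp encodes the partner of EcR, the fly homologue of the vertebrate retinoid X receptor. The gene (FBgn0003964) lies on the minus strand of chromosome X from 2038798 to 2042311, with 2 transcripts and a single coding region of 508 amino acids. It had 1181 and 1176 counts, nearly the counts of EcR. On its short model these gave 19.2 and 20.4 deposited TPM (19.8 ± 0.843, n = 2) or 22.5 and 23.7 exonic TPM (23.1 ± 0.871), above 40.6% and 39.5% of the detected genes. The most upstream start of usp, at 2042311, is also that of Actn, the alpha-actinin gene, on the same strand, and the genes share 265 of the 3038 exonic bases of usp. Over the unshared bases usp stood at 25.1 ± 0.946 TPM.

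The receptor genes thus had like counts and unlike levels. The ratio of EcR to usp was 0.958 ± 0.0313 in counts scaled to library size (CPM, mean and SD of 2 libraries). It was 0.169 ± 0.00551 in deposited TPM, 0.293 ± 0.00958 in exonic TPM and 0.346 ± 0.0113 with the length of the longest annotated transcript. usp was above EcR on each of these per-length scales in both libraries, by 5.94-fold as deposited, by 3.41-fold on the exonic scale and by 2.89-fold on the longest transcript. These folds are no bounds, since the transcripts used are unknown. The next values, and those like them below, change only the length of the gene itself and keep the scaling of the exonic TPM. If all reads came from the shortest transcript, EcR would stand at 18.0 TPM and usp at 27.9 TPM. With all reads from the longest, the values would be 7.99 and 23.1 TPM. The highest of these for EcR still lay below the lowest for usp. The distance between them is set more by the length than by the spread between libraries.

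Eip75B encodes a haem-binding nuclear receptor that represses Hr3 function. It lies on the minus strand of chromosome 3L from 17950953 to 18064696 (FBgn0000568), with 7 transcripts from 7 starts and 5 coding regions of 906 to 1412 amino acids. It had the most counts of the members, 3418 and 3280. Its level was 8.11 and 8.30 deposited TPM (8.20 ± 0.135, n = 2) or 14.7 and 14.9 exonic TPM (14.8 ± 0.172). Counts per gene do not show which starts were used. If all reads came from its shortest transcript the exonic scale would give 53.2 TPM, and if all came from its longest, 24.2 TPM.

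Eip74EF encodes an ETS-domain transcription factor, among the first genes whose polytene puffs open after the hormone. The gene (FBgn0000567) spans 17558672 to 17619325 on chromosome 3L, minus strand, with 5 transcripts from 3 starts. It had 1243 and 1313 counts, or 3.83 and 4.31 deposited TPM (4.07 ± 0.343, n = 2) and 7.71 and 8.62 exonic TPM (8.16 ± 0.648). Its libraries stood apart more than those of the other members at this depth, as given below.

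br encodes the Broad proteins, BTB-domain zinc finger factors that specify the pupal stage. The gene (FBgn0283451) spans 1575132 to 1664869 on chromosome X, plus strand, and has the most transcripts of the members, 16 from 9 starts, with 7 coding regions of 514 to 1011 amino acids. It had 607 and 557 counts, or 0.769 and 0.752 deposited TPM (0.760 ± 0.0116, n = 2) and 1.74 and 1.69 exonic TPM (1.71 ± 0.0344). Its 20201 distinct exonic bases were the most of the members, and no single transcript holds more than 9822 of them. If all reads came from the shortest transcript its level would be 10.3 TPM, and from the longest, 3.53 TPM, which is the widest such range of the members at 2.91-fold. Each of these values lay below the median detected gene (34.9 exonic TPM).

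Eip78C encodes a nuclear receptor related to Eip75B. On chromosome 3L the gene (FBgn0004865) runs along the plus strand from 21226609 to 21266503, with 4 transcripts from 3 starts. It had 224 and 230 counts, or 1.21 and 1.32 deposited TPM (1.26 ± 0.0811, n = 2) and 2.20 and 2.40 exonic TPM (2.30 ± 0.137). Its level lay above 9.16% of the detected genes as deposited and above 14.5% on the exonic scale.

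ftz-f1 encodes a nuclear receptor that acts as a partner of Fushi tarazu in the early embryo and as a competence factor for the prepupal hormone pulse. Its locus is on the minus strand of chromosome 3L from 18750607 to 18801309 (FBgn0001078), with 4 transcripts from 3 starts and 3 coding regions of 803 to 1027 amino acids. It had 1971 and 1872 counts, or 8.34 and 8.45 deposited TPM (8.39 ± 0.0767, n = 2) and 13.3 and 13.4 exonic TPM (13.3 ± 0.0570). Of its 8581 exonic bases, 29.4% are shared on the same strand with lncRNA:CR45939, which had 1 and 3 counts. A read on bases shared by both genes was counted for neither. All shared bases belong to the transcript that encodes the 1027-residue protein, of which 53.4% is unshared, while the other 3 transcripts hold none. Over the unshared bases ftz-f1 stood at 18.7 ± 0.0789 TPM.

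Hr3 encodes a nuclear receptor of the ROR family that activates ftz-f1 in the prepupa. It lies on the minus strand of chromosome 2R from 10203995 to 10237348 (FBgn0000448), with 6 transcripts from 3 starts. It was the only member below the minimum, with 1 count in each library (exact Poisson 95% interval 0.0253 to 5.57 counts), or 0.00236 and 0.00252 deposited TPM. This count does not measure most of the gene. Of its 10465 exonic bases, 82.7% are shared on the same strand with other annotated genes. CG12912 has 6466 exonic bases and CG46321 has 6071, and all of them lie within Hr3 exons, while lncRNA:CR46322 shares 228. The counts of these genes were 0 in each library, and for CG12912 and CG46321, with no base of their own outside Hr3, they could not have been otherwise. Of the 6 Hr3 transcripts, 3 have no unshared base and the others have at most 1459, at the upstream start or at the 3′ end in the gene models, so reads on the shared bases would be left among the read pairs in overlapping genes, which numbered 640467 and 611511 over the whole libraries. For the 1810 unshared bases alone, the upper bounds of the counting intervals allow 0.177 and 0.187 TPM. A low level of Hr3 can be stated for those bases only. A share of exonic bases above 80% on the same strand was found for 591 of the annotated genes (3.34%).

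Eip93F encodes a DNA-binding factor of the late response, known for the removal of larval tissue and for adult specification. It lies on the plus strand of chromosome 3R from 21949114 to 22014539 (FBgn0264490), with 3 transcripts from 2 starts. It had 196 and 152 counts, or 0.622 and 0.514 deposited TPM (0.568 ± 0.0760, n = 2) and 0.894 and 0.734 exonic TPM (0.814 ± 0.113). It was the lowest of the detected members per length, above 4.95% of the detected genes as deposited and above 6.38% on the exonic scale.

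Eip71CD is the member that is no transcription factor. It encodes a methionine sulfoxide reductase and was first described as a protein made by Kc cells after ecdysone. The locus (FBgn0000565) is short, 15511052 to 15513202 on the plus strand of chromosome 3L, with 6 transcripts from 3 starts that encode 82 to 261 amino acids. It had 2331 and 2108 counts, or 35.1 and 33.8 deposited TPM (34.5 ± 0.879, n = 2). Its 6006 deposited bases cover only 1354 distinct ones, so its exonic levels were 99.6 and 95.4 TPM (97.5 ± 2.96), and its place among the detected genes moved from above 53.7% of them to above 80.5%. No other member moved as far.

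Thus 9 of the 10 members were detected, beside 49.7% of all genes and 59.5% of the 13883 protein-coding genes, and the same 9 had at least 100 counts in each library, beside 40.4% of all genes and 50.2% of the protein-coding genes. The exception, Hr3, is the member whose count covers least of its exons. Being detected did not mean a high level. The median log2(TPM + 1) of all 10 members was 2.23 as deposited and 3.08 on the exonic scale, against 4.95 and 5.17 for the detected genes and 2.09 and 2.16 for all protein-coding genes. On these scales only Eip71CD lay above the median detected gene, which had 29.8 deposited TPM and 34.9 exonic TPM. Eip75B would lie above that exonic median, at 53.2 TPM, if all its reads came from its shortest transcript. The members together took 12330 and 11790 counts, or 369 and 372 CPM.

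**Figure D2:**
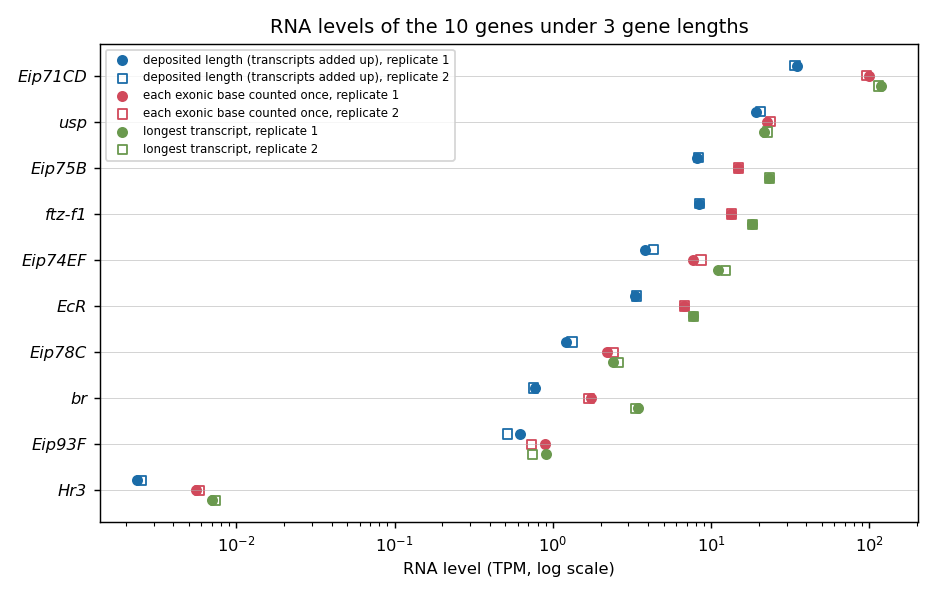
Level of each member in replicates 1 and 2 on a log TPM axis, on the deposited, exonic and longest-transcript scales. Eip71CD is highest on each scale (33.8 to 35.1 TPM as deposited, 95.4 to 99.6 exonic). The points of Hr3, with 1 count in each library, lie far below the others. That count covers only the 1810 unshared exonic bases of Hr3, so most of the gene is not measured.

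The order of the deposited levels was Eip71CD, usp, ftz-f1, Eip75B, Eip74EF, EcR, Eip78C, br, Eip93F and Hr3. The last place of Hr3 rests on a count that leaves out most of its exons, so it does not rank its RNA. The library ranges of neighbours in the order did not overlap in 9 of 9 pairs, on this scale, on the exonic scale and with the longest transcript. The distance of ftz-f1 from Eip75B was nonetheless only 0.190 deposited TPM, beside SDs of 0.0767 and 0.135, and on the exonic scale Eip75B was above ftz-f1 by 1.49 TPM (1.11-fold). With the longest transcript as the length of every gene, Eip75B also passed usp, at 23.2 ± 0.260 against 22.2 ± 0.828 TPM. On that scale br passed Eip78C, at 3.38 ± 0.0692 against 2.49 ± 0.147 TPM. The order thus changed with the length within the pairs ftz-f1 and Eip75B, Eip75B and usp, and br and Eip78C. It cannot be given there without a length, and other pairs also depend on the transcripts used. Eip74EF stood above EcR on each of these scales (4.07 ± 0.343 against 3.34 ± 0.0330 as deposited). If all reads came from the shortest transcript of each gene, EcR would be higher, at 18.0 against 15.1 TPM. On that assumption ftz-f1 (28.7 TPM) would also pass usp (27.9 TPM).

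The libraries agreed closely for most members. The CPM of replicates 1 and 2 differed by less than 5% for 6 of the 9 detected members, and by 1.22-fold at most. EcR and ftz-f1 had log2 ratios of -0.00, Eip75B of -0.02, br of 0.05, Eip71CD of 0.07 and usp of -0.07. Eip74EF was lower in replicate 1, with a log2 ratio of -0.16 and a 95% counting interval of -0.27 to -0.04, the only interval of the 9 without 0. This was a wider difference than in 98.2% of the 1745 genes whose count lay within 1.5-fold of its own, for which the 95th percentile was 0.12. Eip93F had the largest ratio, 0.29, but on few counts: its interval ran from -0.02 to 0.61, and 92.2% of 553 genes of like count had a smaller one. Eip78C, at a log2 ratio of -0.11, differed by less than counting error. These intervals cover counting error only, and reads amplified by PCR are not independent molecules.

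**Figure D3:**
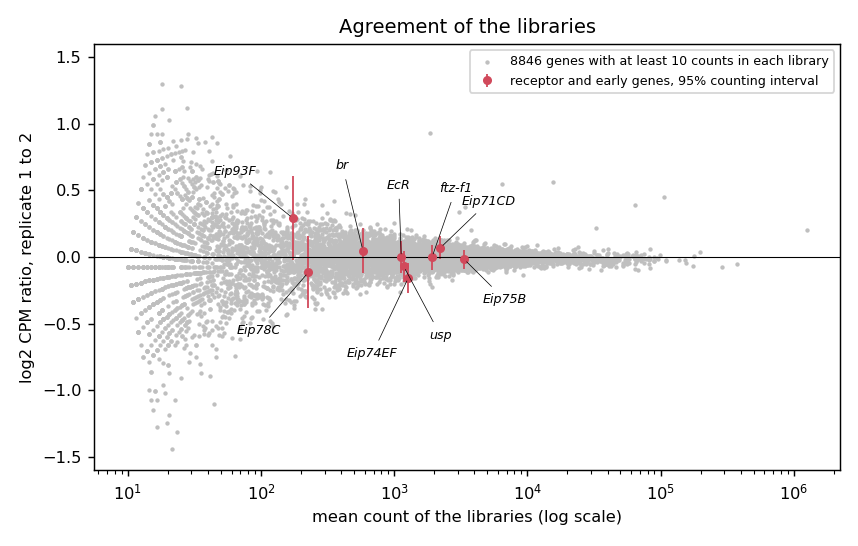
Log2 ratio of CPM in replicate 1 to replicate 2 (y axis) against mean count on a log axis (x axis), for the 8846 detected genes in grey and the 9 detected members in red with 95% counting intervals. Eip74EF (-0.16) has an interval that stops short of 0, and Eip93F (0.29) has the largest ratio and the fewest counts.

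Read pairs on the opposite strand were few for the members, with br as an exception. Of the read pairs on the br exons on either strand, 116 in replicate 1 and 109 in replicate 2 lay opposite to br, or 16.0% (exact binomial 95% interval 13.4 to 18.9) and 16.4% (13.6 to 19.4). The share pooled over both libraries placed br above 93.9% of the 6976 protein-coding genes with at least 100 counts, whose median was 1.33%. The mucin-related gene Mur2B spans the whole br locus on the opposite strand, from 1523554 to 1668788, shares 189 exonic bases with br and had 2126 and 1982 counts. In the unstranded count, 32 read pairs of br in each library were lost to this overlap. A read pair on exons of both genes is left out of that count. No more than 32 of the opposite read pairs in each library thus lay on annotated Mur2B exons, and the source of the others was not tested. Eip93F had 2.97% and 4.40% of its read pairs on the opposite strand, from 6 and 7 read pairs, and the other 7 detected members between 0.707% and 1.72%. Since the counts used here are those of the matched strand, the levels of br given above leave these read pairs out.

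**Figure D4:**
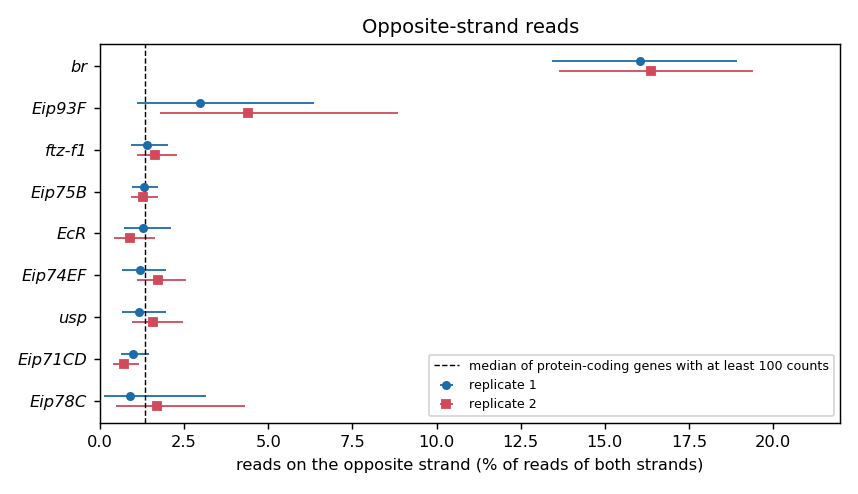
Share of read pairs on the opposite strand (percent) for each detected member in replicates 1 and 2, with exact binomial 95% intervals. br stands at 16.0% and 16.4%, Eip93F at 2.97% and 4.40%, and the other 7 at 1.72% or less.

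The pathway around the receptor was read from 7 lists of other genes by role, 54 genes in all, of which nvd was not analysed here. Of the 53 measured, 26 were detected, beside 49.7% of all genes and 59.5% of the protein-coding genes, and the lists differed widely. Of the 7 measured enzymes that make the hormone from cholesterol, only sro was detected, with 30 and 36 counts. It had more read pairs, 42 and 45, on the opposite strand, where its exons overlap those of Rnb. spok had 3 and 0, spo 2 and 1, phm 1 and 1, dib and shd 1 and 0 each, and sad 0 and 2 counts. By contrast Oatp74D, the importer that carries ecdysone into fly cells, had 2579 and 2408 counts and stood at 35.8 ± 0.279 exonic TPM, above usp (23.1), but at 15.4 deposited TPM, below usp (19.8). Cyp18a1, the enzyme that inactivates the hormone, had 11 and 7 counts, and Eo, an ecdysteroid oxidase, had 0 and 1.

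The partners and cofactors of the receptor were the most fully detected list, 10 of 11, beside 49.7% of all genes. The chaperone gene Hsp83, whose product is needed for receptor assembly, was highest at 3521 ± 124 exonic TPM. The corepressor gene Smr stood at 19.7 TPM, the coactivator gene tai at 21.6 TPM, and trr, a histone methyltransferase gene, was the lowest of the 10 at 19.0 TPM. On the deposited scale tai was the lowest, at 7.37 TPM. Each of the 10 thus lay above EcR (6.77 exonic and 3.34 deposited TPM) on both scales. Hr38, a nuclear receptor that can also pair with Usp, had 2 and 10 counts and was not detected.

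Of 8 other ecdysone-regulated factors, 6 were detected, beside 49.7% of all genes and 59.5% of the protein-coding genes. The zinc finger gene crol was highest at 155 exonic TPM, vri stood at 37.6 and the nuclear receptor gene Hr39 at 22.1 TPM. Hr4 was the lowest of the 6 at 0.60 TPM (149 and 131 counts), Blimp-1 had 12 and 5 counts, and svp had 0 and 1. Kr-h1, a factor of juvenile hormone signalling, stood at 5.53 TPM. It shares 78.6% of its exonic bases on the same strand with CG45075, so, as for Hr3, its count covers only a part of the gene.

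Of 10 other genes named for induction by ecdysone, 5 were detected, near the share of all genes (49.7%) and of protein-coding genes (59.5%). Those detected were Ldh (lactate dehydrogenase, 798 exonic TPM), ImpL2 (a secreted insulin-binding protein, 538 TPM), Eip55E (a cystathionine gamma-lyase, 249 TPM), Eip63E (a cyclin-dependent kinase, 46.0 TPM) and ImpE3 (27 and 23 counts). Eip63F-1 had 2 and 7 counts, ImpE1 2 and 3, Eip63F-2 (annotated as an antisense RNA gene) 1 and 2, ImpE2 1 and 0, and ImpL1 0 and 0. The list thus ran from genes far above the median detected gene to genes under the minimum.

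None of the 10 hormone targets of the salivary gland, fat body and epidermis was detected. The salivary glue genes, the fat body genes Fbp1, Fbp2 and Lsp2, and the cuticle gene Edg84A had at most 2 counts in a library, and 4 of the 10 had 0 in both. All but Edg84A are also among the salivary gland and fat body markers given above, so these are the same counts and no separate result. Of the 4 cell death genes that the hormone controls in larval tissue, 3 were detected, beside 49.7% of all genes. The caspase gene Dronc stood at 62.8 ± 2.04 exonic TPM, hid had 144 and 164 counts, rpr 26 and 43, and grim 1 and 2.

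**Figure D5:**
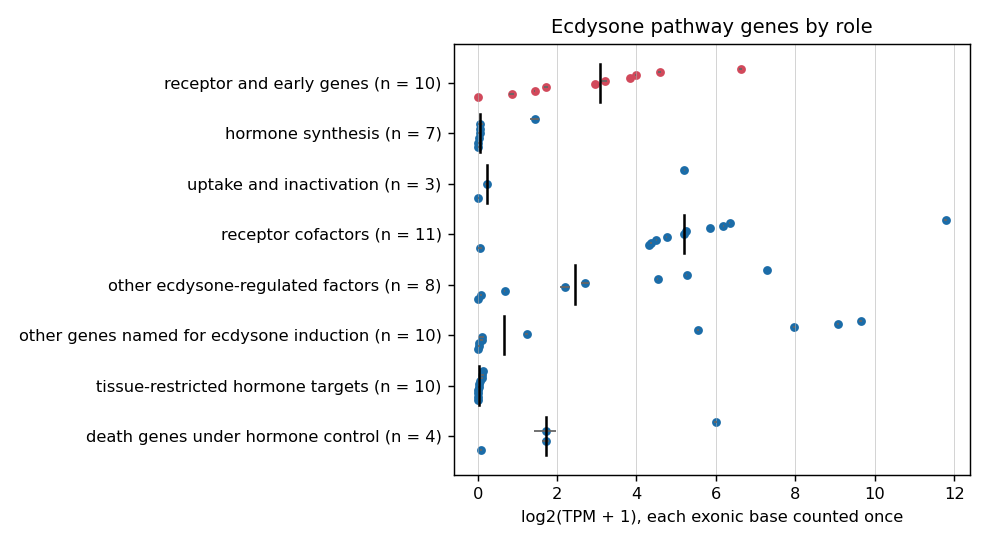
Exonic level, as log2(TPM + 1), of the members and of the genes of each pathway list, with a point per gene for the mean of both libraries, a thin line from replicate 1 to replicate 2 and a bar at the list's median. Of the 11 cofactor genes 10 lie at 19.0 TPM or more, while the synthesis genes other than sro and the tissue-restricted genes lie near 0.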

How the data were processed

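RNA was measured by paired-end RNA-seq in 2 libraries of Kc167 cells, a single group, so no contrast and no differential test was made. The submitters' processing notes name STAR 2.7.1a and the dm6 assembly. The authors deposited STAR counts per gene in 3 strand columns, and a combined table with TPM and the gene length behind it. The table's counts are those of the matched strand, and 0 of its value columns lacked a sample. Read pairs counted for no gene (21.6% and 21.0%: unmapped, at several sites, outside genes or in overlapping genes) stayed out of library totals, and 3 counts correspond to 0.0897 and 0.0946 CPM.

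Members and lists were chosen with earlier results of these data known. All 10 members are named, and other genes come from 7 lists by role, of which the highest and lowest are named and any other may be. TPM was recomputed over distinct exonic bases, over the longest transcript and, chosen after seeing the data, over unshared bases, from Ensembl release 115 (BDGP6.54, the same assembly as dm6), which covered 17710 of the genes. Eip71CD (annotated as MsrA), phm (phtm), Alien (alien), Eip55E (Cth) and Eip63F-2 (asRNA:Eig63F-2) stand in the annotation under other names and were matched through synonyms. Means and SDs are over 2 libraries, and 95% intervals are exact for counts and shares. Scripts ran in Python 3.11.15 (numpy 2.4.6, pandas 2.3.3, scipy 1.17.1, matplotlib 3.10.9) and were tested on simulated data, and scaling factors came from edgeR 4.0.16 and DESeq2 1.42.0 in R 4.3.3. Alternatives were unstranded counts, other minimums, lengths, scalings and a pseudocount of 0.1 in place of 1.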

Additional observations from a re-analysis of the deposited data

How the results depend on the processing

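The count of detected members (9) stayed at 9 with unstranded counts, with a minimum of 100 and without either replicate, was 10 at a minimum of 1 count and 7 at a minimum of 1 TPM. The count of detected pathway genes (26) rose to 40 at a minimum of 1 count, was 27 with unstranded counts, 25 at a minimum of 1 TPM and 23 at a minimum of 100 counts, and was 27 to 28 without replicate 1 or replicate 2. The median log2(TPM + 1) of the members (2.23) was 3.08 on the exonic scale, 3.39 with the longest transcript, 5.19 in CPM, 1.92 with a pseudocount of 0.1, and 2.34 over the detected members, which is also the value without Hr3, and it was 3.07 over unshared bases. Leaving out a replicate gave 2.19 to 2.27. The ratio of EcR to usp (0.169) was 0.293, 0.346, 0.958 and 0.268 on the exonic scale, with the longest transcript, in CPM and over unshared bases, and 0.165 to 0.172 without a replicate. The largest log2 ratio between libraries (0.29) ran from 0.27 to 0.30 over unstranded counts and the scalings of edgeR and DESeq2. Of the single TPM values, 10 of 10 moved by more than the replicate SD with each other length and 5 with unstranded counts. Leaving out a replicate is no check of these means, since with 2 libraries it cannot move a mean by more than their SD. The unshared lengths and the value without Hr3 were chosen after seeing the data. No paired analysis was possible because there is only 1 group. A search of the promoters for a TATA motif and its 2 alternatives were planned and not run.

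With 2 libraries and a single condition, the spread is known poorly, and no level can be tied to the hormone or to the solvent. Counts per gene do not separate transcripts, so the levels of genes with many starts depend on the length chosen. Reads on exons shared by genes on a strand were counted for no gene, which leaves most of Hr3 unmeasured. Genes with fewer than 10 counts were not measurable at this depth and are not shown to be silent.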

Other observations

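Among the pathway genes, 5 had more read pairs on the opposite strand than on their own, with at least 10 on the opposite strand in each library: the hormone synthesis genes spo (29 and 31 opposite against 2 and 1 matched), sad (38 and 30 against 0 and 2), dib (20 and 21 against 1 and 0) and sro (42 and 45 against 30 and 36), and ImpL1 (26 and 16 against 0 and 0). The exons of spo, sad, dib and sro each overlap those of a gene on the opposite strand, l(3)psg2 (3260 and 3177 counts, 308 shared bases), CG6962 (1110 and 1062, 53 bases), wit (246 and 242, 400 bases) and Rnb (842 and 847, 109 bases). The part of these neighbours in the opposite-strand counts was not tested. This group was picked after its values were seen.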
